A study of Caenorhabditis elegans with 4 samples.

Results

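On chromosome II of Caenorhabditis elegans, 713 sites of up to 5 kb were called for HTZ-1, the worm's form of the histone variant H2A.Z. They were taken from the larger of 2 deposited peak lists, which held 4940 peaks in all, 851 of them on this chromosome. The other 138 peaks of chromosome II were wider than 5 kb. A peak's midpoint placed it on the left arm (below base 4880000, 161 peaks), in the centre (394 peaks) or on the right arm (above base 12020000, 158 peaks), in coordinates of the WormBase WS220 build. The limits were set from position and width alone, but these arms were proposed because their peak densities were known to differ. Density and the plain spacing that follows from it are therefore described here without a test.

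Chromatin came from L3 larvae of N2, the strain used as wild type in worm laboratories, taken whole from a population with males and hermaphrodites held at 20 °C. The HTZ-1 antibody, an affinity-purified rabbit polyclonal serum, gave 2 chromatin immunoprecipitation (ChIP) libraries, and 2 libraries of input DNA were made beside them. The lists do not say which libraries stand behind them, so no value has a spread over libraries. The smaller list, with 4283 peaks and 683 on chromosome II, was used as a second call on this experiment and not as a replicate. Read depth is unknown here. Intervals are at the 95% level and cover the counting of peaks only. Those of densities treat peaks as independent, but counts on the arms varied more than that, so they are too narrow there.

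H2A.Z takes the place of histone H2A in some nucleosomes, and in worms, as in yeast and mammals, it is known mainly from promoters. C. elegans autosomes have a gene-rich centre where crossovers are rare. Their arms recombine more, carry more repeats and heterochromatin marks such as H3K9 methylation, and tend to lie near the nuclear envelope. Whole larvae mix many tissues, so a peak is an average over cells, and sites in few cells cannot be told apart from weak sites in many.

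The left arm was the sparse part of the chromosome. The larger list held 33.0 peaks of up to 5 kb per Mb there (exact Poisson 95% interval 28.1 to 38.5), against 48.8 per Mb on the right arm (41.5 to 57.0) and 55.2 per Mb in the centre (49.9 to 60.9). The density on the left arm was 0.676 times that on the right arm. The smaller list gave 32.6 peaks per Mb on the left arm, 45.1 on the right arm and 39.9 in the centre, so that the left arm was the sparsest part in both calls. The order of the other regions changed between the lists: the larger list put the ratio of right arm to centre at 0.885 (0.731 to 1.07) and the smaller list at 1.13 (0.919 to 1.38), and both intervals include 1. Peaks of up to 5 kb covered 7.20% of the left arm, 14.0% of the centre and 10.6% of the right arm in the larger list. In the smaller list they covered 7.16%, 10.5% and 10.6%, so the centre and the right arm were alike there.

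Wider peaks, which are not among the 713, added to the centre above all. The larger list held 107 of them in the centre (14.99 per Mb), 13 on the left arm (2.66 per Mb) and 18 on the right arm (5.56 per Mb). With them, HTZ-1 peaks of the larger list covered 26.4% of the centre, 14.8% of the right arm and 8.87% of the left arm. In the smaller list the values were 16.5%, 13.2% and 8.96%, with a much smaller lead of the centre. The limit of 5 kb thus removed 21.4% of centre peaks and 7.47% of left-arm peaks. The peaks nearest to it were 4989, 4978 and 4962 bp wide on the inside and 5030, 5072 and 5179 bp wide on the outside, so no natural break lies there.

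**Figure D1:**
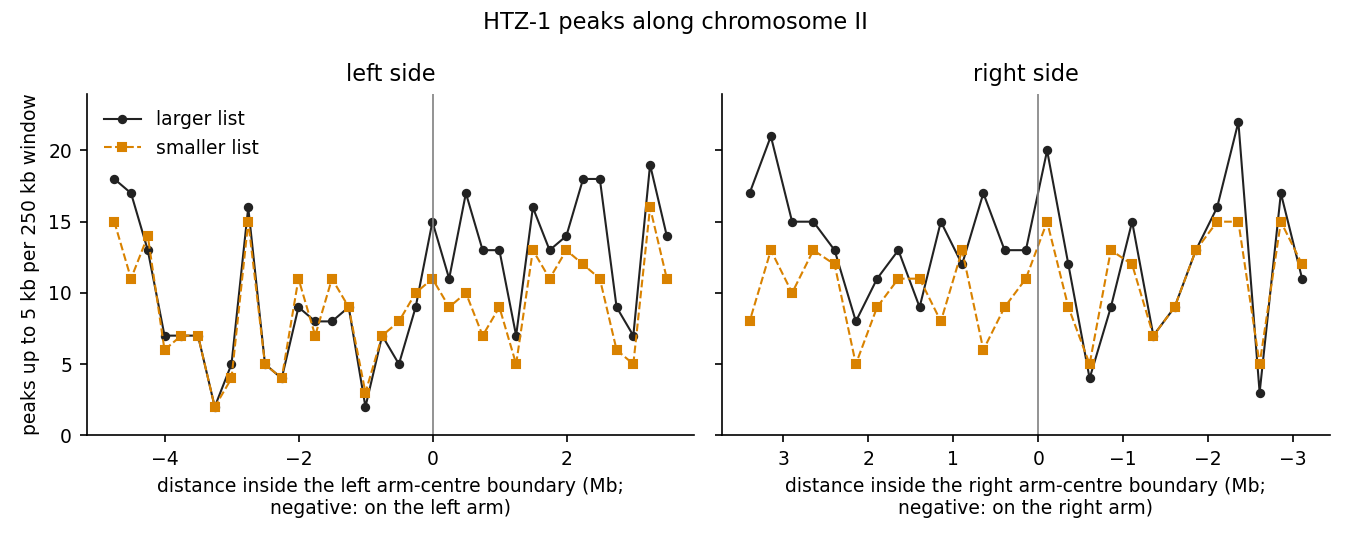
Peaks of up to 5 kb in full 250 kb windows of chromosome II (vertical axis) by distance from the boundary between arm and centre in Mb (horizontal axis, grey line at the boundary), in the larger list (black circles) and the smaller list (orange squares). Left-arm windows of the larger list run from 2 to 18 peaks, with counts of 18 and 17 in the outermost windows, and in the centre the larger list lies above the smaller one in 26 of 28 windows.

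Within the left arm the peaks were unevenly spread. Across its 20 windows of 250 kb, the larger list held from 2 to 18 peaks per window with a median of 7.5. The last of these windows, 4750001 to 5000000, spans the left boundary, so some of its 15 peaks lay in the centre. The 28 windows of the centre held 7 to 21 with a median of 13, and the 13 windows of the right arm held 3 to 22 with a median of 12. The ranges overlap, but no window of the centre fell below 7. The variance of the counts was 2.63 times their mean on the left arm, 2.77 times on the right arm and 0.949 times in the centre, where a value near 1 is that of evenly and independently spread sites. In the smaller list the same quotients were 1.78, 1.27 and 0.834. The arms again had the higher values, but that of the right arm, over 13 windows, lay much nearer 1 than in the larger list. These quotients speak for counts per 250 kb and not for closer range. Gaps between neighbouring peaks in the centre had a standard deviation 1.58 times their mean in the larger list and 1.15 times in the smaller. Counts of the lists followed each other with Spearman's rho of 0.925 over the left-arm windows, 0.903 over those of the right arm and 0.508 over those of the centre, as a description of calls on the same experiment.

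The left end differed from the rest of its arm. The first 750 kb, a stretch chosen after the windows were seen, held 48 peaks or 64.0 per Mb (47.2 to 84.9), in windows of 18, 17 and 13 peaks. The interval does not allow for that choice, so the contrast with the rest of the arm is a description. The remaining 4.13 Mb of the left arm held 113 peaks, or 27.4 per Mb (22.5 to 32.9). The smaller list gave 53.3 and 28.8 per Mb for the same stretches. The right arm showed no such contrast, with 42.7 peaks per Mb in its last 750 kb (29.2 to 60.2) and 50.7 per Mb elsewhere (42.2 to 60.3). Away from both ends, the left arm had 0.540 times the density of the right arm.

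Outside its end, the left arm had a rich window between poor ones. In a pair picked after the counts were seen, the window from base 2000001 to 2250000 held 16 peaks and its neighbour from 1750001 to 2000000 held 5. The emptiest windows of the whole chromosome were 1500001 to 1750000 and 3750001 to 4000000 on the left arm, with 2 peaks each, and 14500001 to 14750000 on the right arm, with 3. The smaller list held 2, 3 and 5 peaks in them. The fullest windows were 14250001 to 14500000 on the right arm with 22 peaks, 8750001 to 9000000 in the centre with 21, and 12000001 to 12250000, which spans the right boundary, with 20. The smaller list held 15, 13 and 15 peaks there. A very full and a very empty window thus lay side by side on the right arm.

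In the larger list, both arms had nearly the same median width, below that of the centre. The median width was 1926 bp on the left arm (quartiles 1474 and 2668 bp), 1936 bp on the right arm (1500 and 2663 bp) and 2260 bp in the centre (1657 and 3226 bp). Within the left arm the median was 2253 bp in the first 750 kb, chosen after the counts were seen, and 1847 bp in the rest. The smaller list gave 2148 and 1891 bp for these stretches. The narrowest peaks of the larger list measured 1062, 1024 and 1047 bp on the left arm, the right arm and in the centre. Peaks wider than the median of all 713 (2149 bp) made up 44.7% of left-arm peaks and 41.8% of right-arm peaks, a difference of 2.95 percentage points (95% interval -7.85 to 13.6) that did not pass the test (Fisher's exact test, two-sided, adjusted p = 0.869). In the centre they made up 55.3%. The right arm minus the centre gave -13.6 points (interval -22.4 to -4.33; Fisher's exact test, adjusted p = 0.0187), and the left arm minus the centre -10.6 points (-19.5 to -1.45; Fisher's exact test, adjusted p = 0.0745). P-values were adjusted over 12 tests, 4 measures in 3 pairs of regions. They compare peaks of 1 list, not libraries, and neighbouring peaks are not independent, so they are too small.

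The difference from the centre was seen at both ends of the range. Peaks wider than 3 kb made up 18.01% of the left arm, 17.7% of the right arm and 30.5% of the centre, and with this limit both arms differed from the centre (Fisher's exact test, adjusted p = 0.00906 and 0.00819). The call for the right arm made with the median was lost under 6 of 8 alternatives, although the centre had the wider peaks under all 8. It was kept only without a width limit and with 3 kb in place of the median. Peaks of 4 to 5 kb made up 4.97% of the left arm (8 peaks), 6.96% of the right arm (11 peaks) and 14.7% of the centre (58 peaks). At the narrow end, 25.5%, 25.3% and 18.5% of the peaks of the left arm, the right arm and the centre measured up to 1.5 kb, and 26.7%, 29.7% and 19.0% measured 1.5 to 2 kb. In the smaller list the medians were 1920 bp on the left arm, 2149 bp on the right arm and 2374 bp in the centre.

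**Figure D2:**
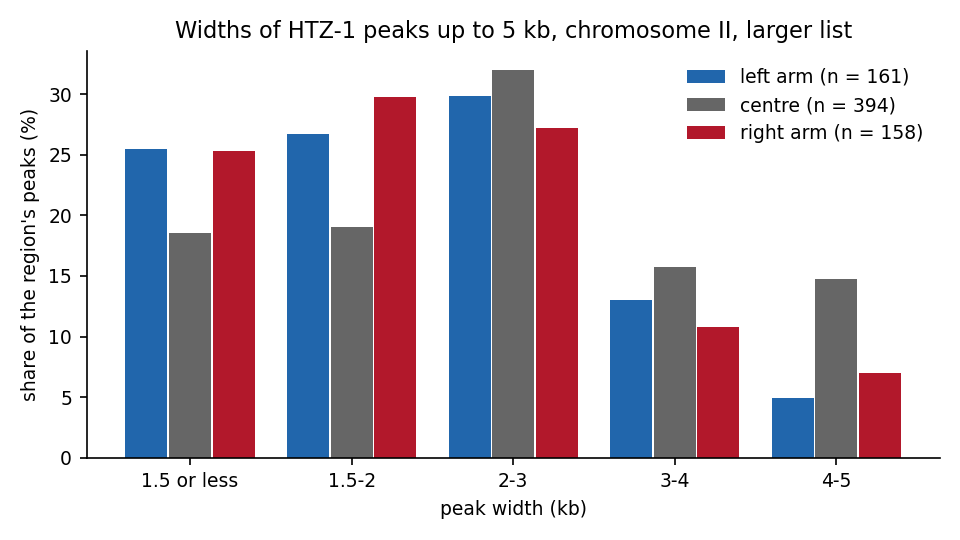
Share of the peaks of each region (vertical axis, %) by width class in kb (horizontal axis) on the left arm (blue, 161 peaks), in the centre (grey, 394 peaks) and on the right arm (red, 158 peaks), larger list. The arms hold larger shares of peaks up to 2 kb than the centre, and the centre's share of 4 to 5 kb peaks, 14.7%, is above those of the arms, 4.97% and 6.96%.

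The widest left-arm sites lay close to the centre, at bases 4827514 to 4832106 (4593 bp) and 4692025 to 4696593 (4569 bp). The smaller list had peaks of 5579 and 4552 bp there. On the right arm the widest were 13028956 to 13033634 (4679 bp) and 14278184 to 14282857 (4674 bp), and in the centre 11491730 to 11496718 (4989 bp) and 10300305 to 10305282 (4978 bp). The first of the centre sites had no counterpart in the smaller list, whereas the other was called there from 10300305 to 10305302. Among the narrowest sites, 2994623 to 2995684 and 4026483 to 4027545 on the left arm (1062 and 1063 bp) were both met by the smaller list. Both narrowest centre sites, 9112274 to 9113320 and 8106795 to 8107852 (1047 and 1058 bp), were not. On the right arm 13244701 to 13245761 (1061 bp) was met and 12252894 to 12253917 (1024 bp) was not.

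The deposited score of a peak, whose scale is not stated, did not differ between the regions by the test used. Its median was 381.2 on the left arm (quartiles 154.2 and 1296), 353.4 in the centre (137.0 and 1127) and 361.2 on the right arm (127.1 and 1322). Peaks above the median score of all 713 (361.3) made up 51.6%, 49.2% and 50.0%, and none of the 3 pairs passed (Fisher's exact tests, adjusted p of 0.988 for left against right arm, 0.869 for left arm against centre and 1 for right arm against centre). The difference between the arms was 1.55 points with an interval of -9.31 to 12.4. The sparsest region thus had the highest median score, by less than the test could tell apart. Score rose with width, with Spearman's rho of 0.721 on the left arm, 0.724 in the centre and 0.711 on the right arm, across peaks of 1 list and as a description. The smaller list gave a rho of 0.606, 0.508 and 0.531 in the same order.

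The highest-scoring sites were named in each region, with ties going to the lower coordinate, since 33 of the 713 peaks share a score of exactly 3100. On the left arm they were 3552414 to 3556024 (score 3233) and 475187 to 478564 (3100). In the centre they were 7477211 to 7480108 (3129) and 5037142 to 5041908 (3100), and on the right arm 13886484 to 13889593 (3121) and 12137426 to 12139707 (3100). All 6 were met by the smaller list, whose peaks there scored 1554, 3100, 1228, 627.8, 1771 and 1261.

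Spacing was described by gaps between adjacent peaks of up to 5 kb with no wider peak between them. There were 149 such gaps on the left arm, 313 in the centre and 140 on the right arm, and a further 12, 81 and 17 neighbouring pairs had a wider peak between them. The median gap was 13.8 kb on the left arm (quartiles 2.66 and 32.2 kb), 6.94 kb on the right arm (1.30 and 22.2 kb) and 3.41 kb in the centre (0.871 and 12.01 kb). Gaps under 5 kb made up 35.6%, 42.9% and 57.8% in the same order, and gaps under 1 kb 17.4%, 22.1% and 26.5%. In the smaller list the medians were 17.5, 9.97 and 9.88 kb, so right arm and centre were spaced alike there. The greatest change between the lists was thus in the centre.

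With the density taken out, no difference in spacing between the regions passed the test. The mean gap was 24.2 kb on the left arm, 16.4 kb on the right arm and 10.1 kb in the centre. Gaps shorter than 25% of their own region's mean made up 39.6% on the left arm, 39.3% on the right arm and 45.0% in the centre. The difference between the arms was 0.312 points (interval -10.9 to 11.4; Fisher's exact test, adjusted p = 1), and the left and right arm minus the centre gave -5.45 and -5.76 points (Fisher's exact tests, adjusted p = 0.540 and 0.522). The intervals of these last differences ran from -14.8 to 4.23 and from -15.2 to 4.13 points. At 50% of the mean gap, an alternative limit, the shares were 47.7% on the left arm, 53.6% on the right arm and 58.1% in the centre, and left arm minus centre gave -10.5 points (Fisher's exact test, adjusted p = 0.0869). The median gap was 0.568 times the mean on the left arm, 0.424 times on the right arm and 0.337 times in the centre. The standard deviation of the gaps was 1.32 times the mean on the left arm, 1.54 times on the right arm and 1.58 times in the centre. In the smaller list the shares of such short gaps were 29.3%, 29.5% and 25.4%, lower in every region.

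**Figure D3:**
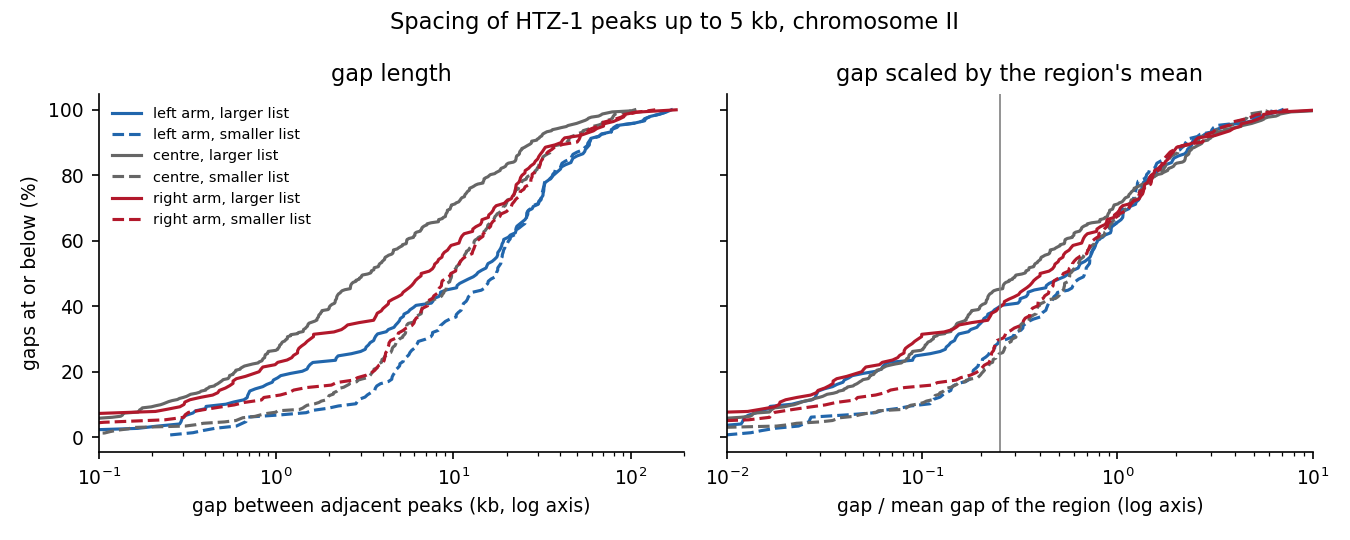
Cumulative share of gaps between adjacent peaks of up to 5 kb (vertical axis, %) by gap length in kb (left panel, log axis) and by gap length divided by the region's mean gap (right panel, log axis, grey line at 0.25), for the left arm (blue), centre (grey) and right arm (red), in the larger list (solid) and the smaller list (dashed). The solid curves stand apart by length, with medians of 13.8, 3.41 and 6.94 kb, and lie closer once scaled, with 39.6%, 45.0% and 39.3% of gaps under 25% of the mean and 47.7%, 58.1% and 53.6% under 50%.

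Close sites formed clusters, taken as runs of 3 or more peaks with gaps under 5 kb and no wider peak between them. The left arm held 10 clusters (2.05 per Mb) with 38 of its 161 peaks (23.6%). The right arm held 13 (4.02 per Mb) with 34.2% of its peaks, and the centre 50 (7.00 per Mb) with 45.4%. Most were small: 7 of 10 on the left arm, 8 of 13 on the right arm and 35 of 50 in the centre had 3 peaks. Their median spans were 11.4, 9.92 and 11.9 kb. The smaller list held 4, 7 and 15 clusters on the left arm, the right arm and in the centre, or 0.820, 2.16 and 2.10 per Mb. They took in 10.1%, 18.5% and 16.8% of the peaks there, so the centre did not lead the right arm in that list.

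The clusters with the most sites lay on the right arm. The first, from base 12278259 to 12302731 close to the centre, packed 9 peaks of 1068 to 4421 bp into 24.5 kb with gaps of 287 to 2443 bp. Its sites with the higher scores came first, 12278259 to 12281212 (2522) and 12282469 to 12286889 (1546), and the other 7 scored 74.8 to 429.2. The smaller list met 6 of the 9. The second right-arm cluster, 14791598 to 14818666, had 8 peaks in 27.1 kb with gaps of 47 to 4293 bp, and the smaller list met 6 of them.

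The largest left-arm clusters both lay in the peak-rich end. That from 267935 to 292773 held 7 peaks of 1100 to 3655 bp, which took up 69.4% of its 24.8 kb, and its scores ran from 75.05 to 2297. Neighbours at 280810 to 283624 and 283645 to 287299 were only 20 bp apart. The cluster from 522531 to 548557 held 6 peaks of 1085 to 2293 bp with scores of at most 310.8, and the smaller list met all 6 with 6 peaks of its own. In the centre, 5454782 to 5482146 and 11531144 to 11557751 held 7 peaks each, as did a longer cluster from 7077075 to 7105507. The smaller list met 2 of the 7 in the first and 4 of the 7 in the second, where the site 11541551 to 11545772 scored 3100 and was met. It met 4 of the 7 in the longer cluster.

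Long empty stretches, 50 kb or more between adjacent peaks of any width, took up 47.9% of the left arm. It held 26 of them with a median of 80.5 kb, 2337 kb in all. The right arm held 15 (median 70.6 kb, 37.2% of its length) and the centre 23 (median 64.0 kb, 22.1%). The second call left most of them empty: by midpoint it placed no peak in 19 of the 26 on the left arm, 10 of the 15 on the right arm and 16 of the 23 in the centre. In reverse, of the long stretches of the smaller list, the larger list left 21 of 23 empty on the left arm, 10 of 14 on the right arm and 10 of 24 in the centre.

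The longest empty stretch, 180.0 kb from 14569919 to 14749887, was on the right arm, and the smaller list placed 2 peaks in it. It was followed there by 12495513 to 12602918 (107.4 kb, no peak in the smaller list) and 13245762 to 13337308 (91.5 kb, 1 peak). On the left arm the longest were 1135822 to 1305040 (169.2 kb, 1 peak in the smaller list), 1502395 to 1660737 (158.3 kb, none) and 703521 to 848125 (144.6 kb, none). The last of these marks the edge of the peak-rich left end. Centre stretches were shorter, 5232842 to 5345748 (112.9 kb, 1 peak), 5094329 to 5199545 (105.2 kb, 4 peaks) and 5943663 to 6044158 (100.5 kb, none). All 3 lay in the left part of the centre.

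Peaks of the larger list were met by the smaller list more often on the arms than in the centre. Of the left-arm peaks, 140 of 161 (87.0%, Wilson interval 80.9 to 91.3%) overlapped a smaller-list peak by at least 1 bp. On the right arm 127 of 158 did (80.4%, 73.5 to 85.8%), and in the centre 261 of 394 (66.2%, 61.4 to 70.7%). The left arm lay 20.7 points above the centre (interval 13.2 to 27.2; Fisher's exact test, adjusted p = 4.73e-06) and the right arm 14.1 points above it (5.92 to 21.4; adjusted p = 0.00572). The arms differed by 6.58 points (-1.58 to 14.7; Fisher's exact test, adjusted p = 0.312). In the other direction the shares were close, with 85.5% of left-arm, 87.0% of centre and 85.6% of right-arm peaks of the smaller list met by the larger list. Counting peaks of any width, the smaller list held 351 in the centre where the larger list held 501. On the left arm it held 173 against 174, and on the right arm 159 against 176. Fewer smaller-list peaks leave fewer to be met by, so the tested differences are not separate from these counts. The call between the left arm and the centre was lost among the higher-scoring peaks (7.13 points, Fisher's exact test, adjusted p = 0.268), as was that between the right arm and the centre (10.6 points, Fisher's exact test, adjusted p = 0.0668).

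In the larger list, the distance to the nearest listed peak moved with the share met. Peaks 5 kb or more from any other peak were met in 69 of 69 cases on the left arm, 70 of 72 in the centre (97.2%) and 55 of 57 on the right arm (96.5%), a grouping added after the data were seen. Such isolated peaks made up 42.9% of the left arm, 36.1% of the right arm and 18.3% of the centre. Among peaks with a neighbour closer than 1 kb, 66.0% were met on the left arm (33 of 50), 67.2% on the right arm (43 of 64) and 50.3% in the centre (91 of 181). Wider peaks nearby also went with a lower share: in the centre 46.1% of the 102 peaks under 5 kb from a peak over 5 kb were met, and 73.3% of the other 292. The centre had 25.9% of its peaks that close to a wider one, the right arm 13.3% and the left arm 6.21%. Peaks of the smaller list did not show this pattern. The larger list met 89.6% of those with a neighbour closer than 1 kb and 83.4% of those 5 kb or more from any other. In the centre it met 96.2% of the 26 smaller-list peaks under 5 kb from a wider one, and 86.1% of the other 259. The part of local crowding in the difference between regions was not tested beyond these values.

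**Figure D4:**
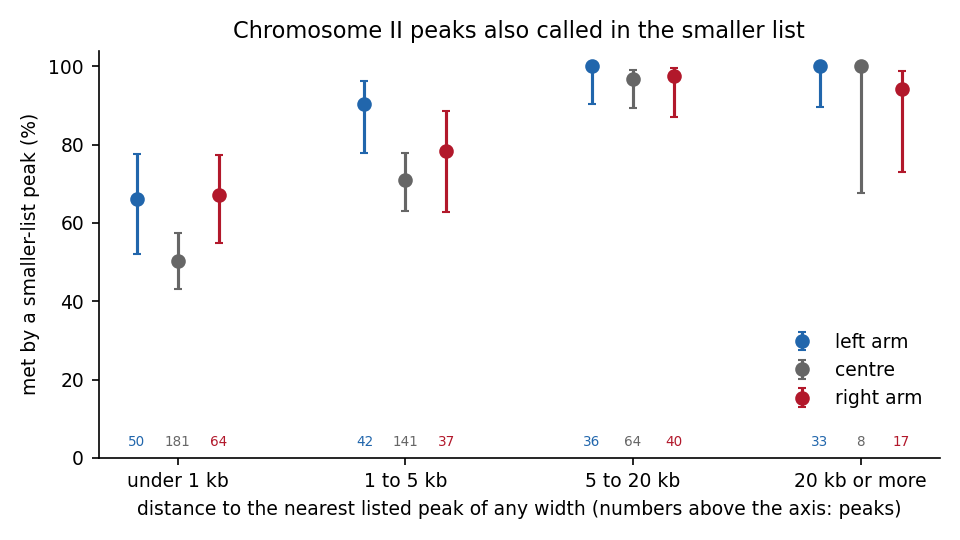
Share of larger-list peaks of up to 5 kb that overlap a smaller-list peak (vertical axis, %, Wilson 95% intervals) by distance to the nearest listed peak of any width (horizontal axis), on the left arm (blue), in the centre (grey) and on the right arm (red); the small figures give the number of peaks. Shares are 94.1% or more at distances of 5 kb and above in all 3 regions and lie between 50.3% and 67.2% under 1 kb.

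Peaks without a counterpart had lower median scores than those with one in every region. In the centre the 133 peaks that were not met had a median score of 146.1 and a median width of 1771 bp, against 644.2 and 2529 bp for those that were. On the right arm the 31 not met had medians of 115.6 and 1539 bp, against 539.3 and 1995 bp. The 21 on the left arm scored 187.4 against 458.7, with widths of 1883 and 1940 bp that hardly differed. Of these 21, 17 had a neighbour closer than 1 kb. So did 90 of the 133 not met in the centre and 21 of the 31 on the right arm. Of all peaks, met or not, 31.1% on the left arm, 45.9% in the centre and 40.5% on the right arm had one. In the narrowest class, up to 1.5 kb, 38 of 41 left-arm peaks were met (92.7%), against 27 of 40 on the right arm (67.5%) and 30 of 73 in the centre (41.1%).

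Where both lists called a site, its edges nearly coincided. In 504 pairs matched singly in both directions, the starts differed by a median of 18 bp and the ends by 19 bp. Both edges lay within 100 bp in 79.9% of the 134 left-arm pairs, 79.5% of the 244 centre pairs and 78.6% of the 126 right-arm pairs. Smaller-list peaks were a median of 49.5 bp wider on the left arm (quartiles 1.5 and 94 bp), 39 bp on the right arm (12.5 and 97 bp) and 16.5 bp in the centre (-10 and 45.8 bp). Few met peaks shared a smaller-list peak with another larger-list peak: 6 on the left arm, 17 in the centre and 1 on the right arm.

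Some of the unmet sites were neighbours. Counting peaks of any width, the centre had 117 runs of unmet peaks, 15 of them 3 peaks or longer. The left arm had 18 runs, none longer than 2 peaks, and the right arm 27, of which 2 reached 3 peaks. Of all peaks of any width, 64.1% were met in the centre, 87.4% on the left arm and 78.4% on the right arm. A lower share met leaves more and longer runs. Whether neighbours were unmet together beyond what these shares bring was not tested. Runs of 3 or more held 34 of the 133 unmet centre sites of up to 5 kb, 5 of the 31 on the right arm and none of the 21 on the left arm, and these shares were not tested. The longest run, picked after its values were seen, was 8466767 to 8533261 with 5 peaks, 3 of them wider than 5 kb, and a median score of 1615.

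The balance between the sides of chromosome II was set beside that of the other autosomes by cutting each into 3 parts of equal length, a definition that uses no arm boundary. On II the first part held 35.2 peaks of up to 5 kb per Mb, the middle part 54.7 and the last part 50.3, a ratio of first to last of 0.699. Chromosome III also had the sparser first part, with a ratio of 0.743 (exact interval 0.615 to 0.897). Chromosomes I, IV and V had the denser one, with ratios of 1.31 (1.11 to 1.55), 1.35 (1.10 to 1.66) and 1.32 (1.08 to 1.62). In the smaller list the ratio was 0.772 on II, and 0.873 (0.718 to 1.06) on III, where the interval includes 1. It was 1.27 to 1.31 on the others. A sparse left side was thus seen on II in both lists, and it is not shown to be particular to II. The middle part had the widest peaks on all 5 autosomes in both lists, and on II its median was 2266 bp against 2001 and 2024 bp in the outer parts of the larger list.

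**Figure D5:**
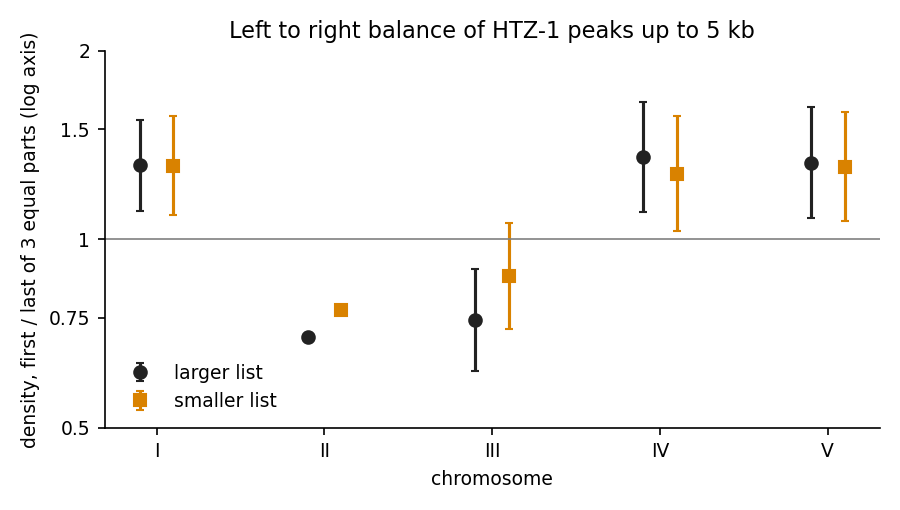
Ratio of the density of HTZ-1 peaks up to 5 kb in the first of 3 equal parts of each autosome to that in the last (vertical axis, log scale, grey line at 1, exact 95% intervals except on II, whose sides were chosen for their difference) for chromosomes I to V (horizontal axis), in the larger list (black circles) and the smaller list (orange squares). Chromosome II has the lowest ratio in both lists, 0.699 and 0.772, and only II and III lie below 1.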

How the data were processed

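The authors deposited 2 peak lists on WormBase WS220, per the file headers, each with start, end and a score per peak whose scale is not stated. BWA is named, without a version, in the submitters' processing notes. No header or label gives the caller settings, the use of input, the pooling of libraries or the build before a liftover step. The liftover comments touch 9 of the 713 peaks. The authors' score was used only to rank peaks within a list.

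Width was end minus start plus 1. Chromosome II was taken to run to base 15256625, the last peak end in either list. A smaller-list peak without a start was given base 1 and left out of widths. Overlap needed 1 bp. Shares carry Wilson intervals, densities exact Poisson intervals and density ratios exact (Clopper-Pearson) intervals. Shares were compared by Fisher's exact test, two-sided, with Benjamini-Hochberg adjustment over 12 tests and a threshold of 0.05. Intervals of differences were built from the Wilson bounds. Python 3.11.15, pandas 2.3.3, SciPy 1.17.1 and matplotlib 3.10.9 were used, and the functions were tested on simulated peaks.

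The sites, regions and measures were chosen with earlier results of these data known. Named sites are, in each region, the 3 longest gaps, the 2 clusters with most peaks, and the 2 widest, narrowest and highest-scoring peaks, with the 3 fullest and emptiest windows and the 3 peaks on each side of the width limit. Ties between clusters went to the shorter span. Genes and sequence of WS220 were not used here, so no gene is named. Alternatives were the smaller list, higher scores, merging, width limits, boundaries, covered bases, and gap and overlap limits.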

Additional observations from a re-analysis of the deposited data

How the results depend on the processing

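No paired analysis was possible because neither list gives values per library, and no library could be left out. Differences below are in percentage points, first region minus second. The ratio of left-arm to right-arm density, a description since the arms were chosen for it, ran from 0.540 to 0.731 over 10 alternatives. Against the centre it moved from 0.598 to 0.816 in the smaller list and 0.785 among peaks met by the other list, and the ratio of right arm to centre moved to 1.13 and 1.07. Clusters with a 2 kb limit numbered 28 in the centre and 6 on the left arm, and with 10 kb 16 on the left arm.

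For width, the left arm passed against the centre in the smaller list (-15.3), with peaks merged within 1 kb (-14.1), without a width limit (-16.3) and at 3 kb (-12.4). The right arm no longer passed in the smaller list (-7.16), among higher scores (-15.7), merged (-10.7), with a 3 kb limit (-9.76) and with boundaries moved to the ends (-11.4) or the middle (-11.4). Left against right changed sign, without passing, in the smaller list (-8.12), among higher scores (-3.22) and merged (-3.40).

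For the second call, left arm against centre no longer passed among higher scores (7.13) or isolated peaks (2.78), nor did right arm against centre (10.6 and, reversed, -0.731). Left against right passed with merged peaks (8.89, Fisher's exact test, adjusted p = 0.0374) and reversed among higher scores (-3.43). In the smaller list all 3 pairs reversed without passing (-1.48, -0.0818 and -1.40).

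Relative spacing never passed. Left against right reversed in 8 settings: smaller list (-0.294), merged (-0.798), no width limit (-0.342), 3 kb limit (-6.34), boundaries to the ends (-1.24), gaps across wider peaks (-0.313), and 10% or 50% of the mean gap (-6.60, -5.92). Left arm against centre reversed in the smaller list (3.83), and right arm against centre there (4.12), with the 3 kb limit (0.426) and at 10% (4.91). Score never passed either. It reversed for left arm against centre without a width limit (-3.60) and without scores of 3100 or more (-0.265), for left against right merged (-1.60), without a limit (-0.594) and at 3 kb (-0.0466), and for right arm against centre without a limit (-3.002), with boundaries to the ends (-0.370) and without the top scores (-1.27). The cause of these changes was not tested. Isolated peaks and the left-out ends were chosen after seeing the data. The number of peaks limits every interval.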
